A study of Schizosaccharomyces pombe with 5 samples.

Results

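mug110, rbd4, SPACUNK4.17 and SPAC11D3.01c are 4 protein-coding genes of fission yeast whose RNAs were named as targets of the RNA-binding protein Mei2, and their Mei2 peaks are 4 of the 128 in the list of Mei2-TAP against untagged cells. They were selected on that contrast: a target had to be among the 20 peaks of lowest p-value both in Mei2-TAP against untagged cells and in Mei2-TAP against Msa1-TAP cells. The levels of Mei2-TAP over untagged cells are therefore given as a description, with no test, and the contrast of Mei2-TAP with Msa1-TAP was not analysed here. The list of Msa1-TAP against the same untagged cells holds 140 peaks, 1 of which lies on these loci.

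All cells were homothallic (h90) and carried ura4-D18 and leu1-32. They were moved from rich YES medium to nitrogen-poor ME medium, for 4 h by the labels, while the protocol also names later harvests. The 3 groups were Mei2-TAP (2 libraries), with a TAP tag at the C-terminus of Mei2, Msa1-TAP (2 libraries), with the same tag on the RNA-binding protein Msa1, and cells with no tag (1 library), and each list was deposited with 1 tagged library. In CLIP-Seq, ultraviolet light links proteins to the RNA they touch, the tagged protein is pulled down, and the attached RNA is sequenced. In the paper, mug110 and SPACUNK4.17 were also found by RIP-CHIP, a pull-down without ultraviolet light that is read on arrays. The other loci, rbd4 and SPAC11D3.01c, were found by CLIP-Seq only. The untagged library measures the RNA that comes through the procedure without a tagged protein.

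Mei2 is the switch for entry into meiosis in this yeast. It carries RNA recognition motifs, works together with the non-coding meiRNA, and keeps the YTH-family protein Mmi1 from removing meiotic transcripts. Mmi1 finds these transcripts by short U(U/C/G)AAAC elements. mug110 belongs to the genes induced in meiosis and its function is not known. rbd4 encodes a protein of the rhomboid family, proteases that cut within membranes. SPACUNK4.17 is annotated as a dehydrogenase that binds NAD, and SPAC11D3.01c as a member of the Con-6 family, named after a conidiation gene of Neurospora.

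By the scaling of the lists, the Mei2-TAP library held 194019 tags, the Msa1-TAP library 359942 and the untagged library 252539. As a check of the label, the peak over meiRNA had the most Mei2-TAP tags of the list, 5277.5 against 79.5 untagged. Its ratio was 86.4 (95% interval 68.9 to 108). This peak of 3769 nt also lay over aga1, mti2, SPNCRNA.4674 and SPNCRNA.4673, so its tags cannot be assigned to meiRNA alone. The same locus was in the Msa1 list, with 249 Msa1-TAP tags against 14 untagged tags in a shorter peak of 1663 nt. That ratio of 12.5 (7.30 to 23.2) ranked 13th of 140. The paper, by quantitative PCR and by sequencing, reported no enrichment of meiRNA with Msa1-TAP. Tags come in steps of 0.5, since each read of a pair counts as 0.5. Ratios are tagged over untagged tags after division by the library totals, and their intervals cover counting error between 2 libraries, not the spread between cultures. The second library of each tagged strain has no list of its own here, and the sources do not say whether replicates were pooled.

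All 4 genes lie on the minus strand, and the stretches that the results turn on are given from the ASM294v3 genome, 5′ to 3′ in the direction of the gene. The first is the end of the mug110 coding sequence (chrII:3453746-3453945), wholly under the Mei2 peak, with TCAAAC, a DNA form of the Mmi1 element, in capitals just before the stop codon.
mug110 end of coding sequence: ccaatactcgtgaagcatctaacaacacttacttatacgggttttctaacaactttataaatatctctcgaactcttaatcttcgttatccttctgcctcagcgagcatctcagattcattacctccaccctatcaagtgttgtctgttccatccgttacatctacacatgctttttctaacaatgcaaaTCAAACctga
The next pair are the introns of rbd4 with 30 coding nt on each side, shown because the Mei2 peak runs across them. In the first (chrI:4894807-4894916) capitals mark the element TGAAAC inside the intron, and in the second (chrI:4894485-4894649) they mark the whole intron, which holds the midpoint of the peak.
rbd4 first intron: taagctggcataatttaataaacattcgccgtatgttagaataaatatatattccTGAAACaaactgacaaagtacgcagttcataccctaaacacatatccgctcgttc
rbd4 second intron: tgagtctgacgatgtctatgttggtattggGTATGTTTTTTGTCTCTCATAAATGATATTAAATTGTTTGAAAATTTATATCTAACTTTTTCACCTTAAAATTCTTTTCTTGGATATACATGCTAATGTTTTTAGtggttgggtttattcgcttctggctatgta
The stretch of SPACUNK4.17 (chrI:2873890-2874139) is the 250 nt that lay under an Msa1 peak as well. It is all coding, and it has no capitals because none of the 3 elements searched occurs in it.
SPACUNK4.17 stretch under both peaks: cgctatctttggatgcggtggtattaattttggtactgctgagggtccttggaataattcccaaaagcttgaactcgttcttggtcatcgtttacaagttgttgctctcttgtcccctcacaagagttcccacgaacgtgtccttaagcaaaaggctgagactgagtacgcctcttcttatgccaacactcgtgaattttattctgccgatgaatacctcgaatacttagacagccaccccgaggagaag
The coding sequence of SPAC11D3.01c (chrI:108908-109147) lies whole within its Mei2 peak. Capitals mark 2 copies of a 75-nt repeat, whose starts are 129 nt apart and which share 54 of 75 bases (72.0%).
SPAC11D3.01c coding sequence: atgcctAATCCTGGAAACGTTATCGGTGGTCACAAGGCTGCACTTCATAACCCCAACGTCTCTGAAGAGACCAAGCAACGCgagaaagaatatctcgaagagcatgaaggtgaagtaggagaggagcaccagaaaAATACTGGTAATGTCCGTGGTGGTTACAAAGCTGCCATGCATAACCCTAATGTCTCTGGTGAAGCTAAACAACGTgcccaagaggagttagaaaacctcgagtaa

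mug110 (SPBC2G2.10c, chrII:3453746-3454661) had 41.5 Mei2-TAP tags and 0.5 untagged tags in its peak, deposited at chrII:3453744-3454309. The ratio of 108 was the highest of the 128 Mei2 peaks, above that of the peak over meiRNA, whose interval lies within its own. Its counting interval ran from 9.29 to 2210, because the untagged side rests on the lowest value in the list. With the untagged value set to 3 tags, the ratio was 18.0. The value of 0.5 is shared by 13 Mei2 peaks and by 10 Msa1 peaks and none is lower, so it cannot be told from the lists whether it stands for a single read or for none. The number of Mei2-TAP tags ranked 20th of 128, and the tags per kb ranked 35th. Of the 13 Mei2 peaks with 0.5 untagged tags, mug110 had the most Mei2-TAP tags, and the next had 21.5. Its untagged density was the lowest of the list as recorded (35.0 tags per kb per 10000000 tags). Its Mei2-TAP density (3786) was above the list median of 2964.

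The mug110 peak of 565 nt covered the 3′ part of the gene, from 38.4% of its length to its annotated end. It held 564 coding nt, all in exon 2, which is 75.5% of the coding sequence. The intron of 43 nt and exon 1 lay outside. No 3′ UTR is annotated for mug110 in this reference, so the peak stops within 1 nt of the annotated end. The nearest genes beyond the peak were crs1, a meiotic cyclin gene, 228 nt from the peak on the minus strand, and myr1, 847 nt from it on the plus strand.

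rbd4 (SPAC19B12.06c, chrI:4893974-4895186) had nearly the same number of Mei2-TAP tags, 40.5, with 3.5 untagged tags in its peak at chrI:4894184-4895025. The ratio was 15.1 (4.83 to 51.3), rank 17 of 128. Its interval overlaps that of mug110. Both had over 40 Mei2-TAP tags and differed by 3 untagged tags, and that small number sets their ratios 7.17 times apart. In Mei2-TAP tags per kb rbd4 was the lowest of the 4 loci, at 2482 per 10000000 tags (rank 98 of 128), and its untagged density of 165 was in the lower part of the list (rank 115).

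The rbd4 peak of 841 nt was the only one of the 4 that contained introns. It began in exon 1, ran across all 3 introns (50, 105 and 43 nt) and ended in exon 4, and it left out both UTRs. Of its length, 643 nt were coding (82.8% of the coding sequence) and 198 nt, or 23.5%, intronic. Its midpoint fell in the second intron. A wide peak spans what lies between its ends, so the list does not tell whether tags came from unspliced RNA, from exons on either side, or from the RNA on the other strand. The nearest other genes were fcp1, the gene of a phosphatase of RNA polymerase II, at 556 nt and SPAC19B12.07c at 432 nt, both on the minus strand.

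SPACUNK4.17 (chrI:2872778-2874579) had the most tags of the 4, 321 in the Mei2-TAP library and 53.5 in the untagged library, over a peak at chrI:2872803-2874457. Both numbers ranked 4th of 128. The ratio of 7.81 (5.78 to 10.5) ranked 35th, and the lower bound of its interval ranked 5th. Its p-value was the 4th lowest of the list. The interval of SPACUNK4.17 was narrow because both libraries had tags there, and it overlaps those of mug110, rbd4 and SPAC11D3.01c.

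At 1654 nt, the SPACUNK4.17 peak was the second longest of the Mei2 list, in which the median peak was 200 nt. It covered 91.8% of this intronless gene: all 1221 coding nt, 205 nt of the 5′ UTR and 228 nt of the 3′ UTR. The midpoint lay at 52.7% of the gene, within the coding sequence. The gene pvg1 lay 1156 nt from the peak on the minus strand, and the non-coding SPNCRNA.3296 lay 593 nt away, also on the minus strand.

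SPAC11D3.01c (chrI:108732-109180) had 126 Mei2-TAP tags (rank 8) and 38 untagged tags (rank 7) in its peak at chrI:108839-109191. Its ratio of 4.32 (2.98 to 6.38) ranked 112th of 128 and lay near the lowest ratio of the list, 4.01. It was the densest of the 4 loci in both libraries, with 18449.5 Mei2-TAP tags and 4275 untagged tags per kb per 10000000 tags, ranks 7 and 6 of the list. Its p-value was the 11th lowest, since HOMER's p-value grows stronger with the number of tags as well as with the ratio. The counting intervals of SPAC11D3.01c and mug110 do not overlap, while all other pairs of the 4 overlap.

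The peak of SPAC11D3.01c, 352 nt, was the shortest of the 4 and the only one that reached past the annotated 5′ end, by 11 nt. It covered the 33 nt of the 5′ UTR, the whole coding sequence of 240 nt and 68 nt of the 3′ UTR. The other gene annotated as Con-6 family, SPAC869.09, lay under no peak of either list. Neighbouring annotation consisted of non-coding RNAs, SPNCRNA.2051 on the minus strand at 318 nt and SPNCRNA.608 on the plus strand at 436 nt.

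**Figure D1:**
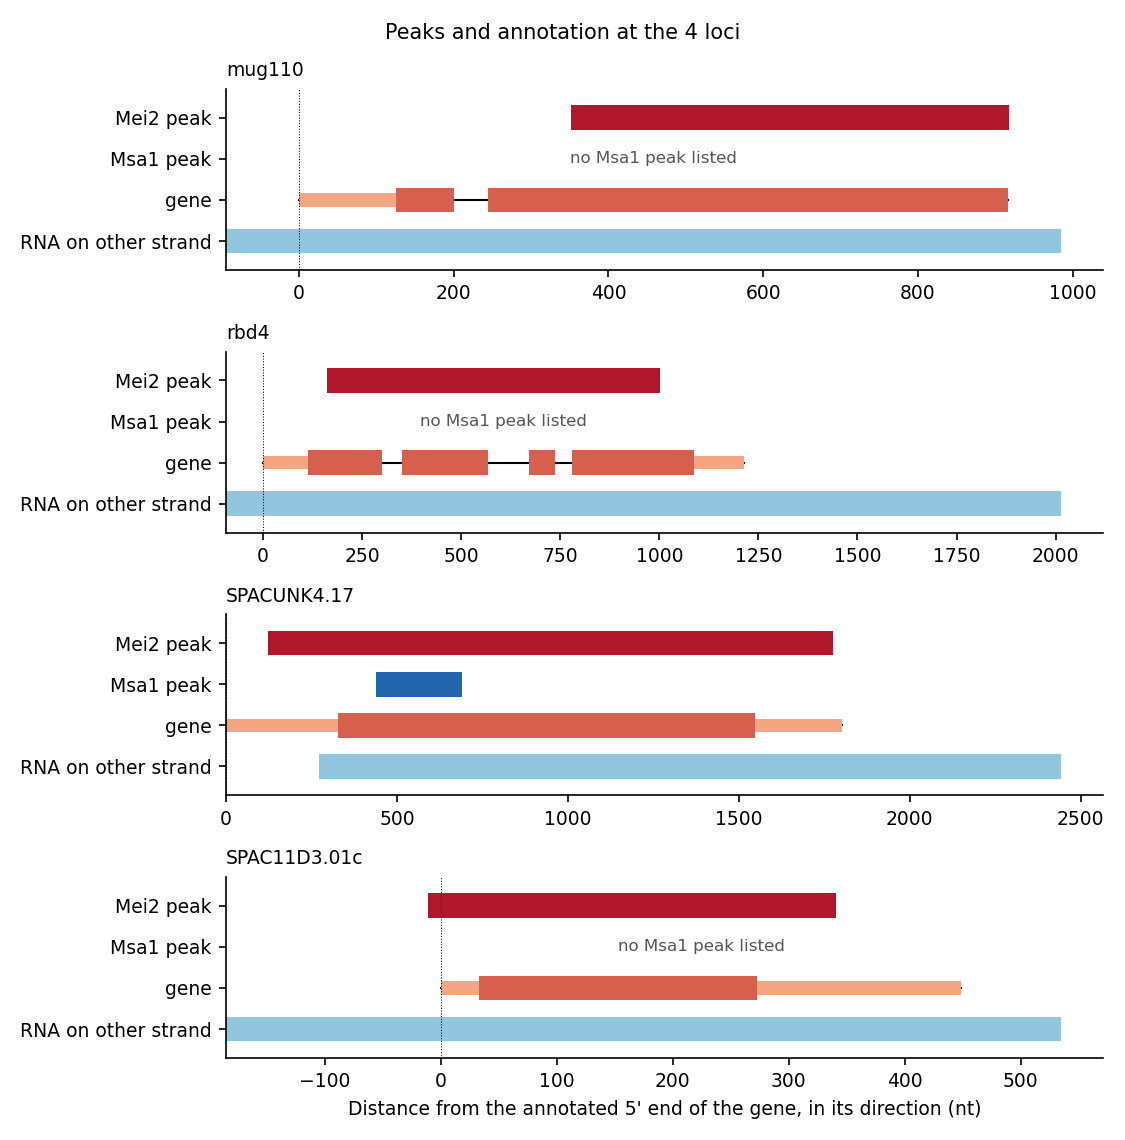
Positions of the Mei2 peak (red), the Msa1 peak (blue), the gene (dark: coding, pale: UTR, line: intron) and the annotated RNA of the other strand (light blue), in nt from the 5′ end of each gene. The peaks cover most of each coding sequence, the RNA of the other strand runs under all 4 peaks, and the single Msa1 peak of 250 nt sits in the first part of the SPACUNK4.17 coding sequence.

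**Figure D2:**
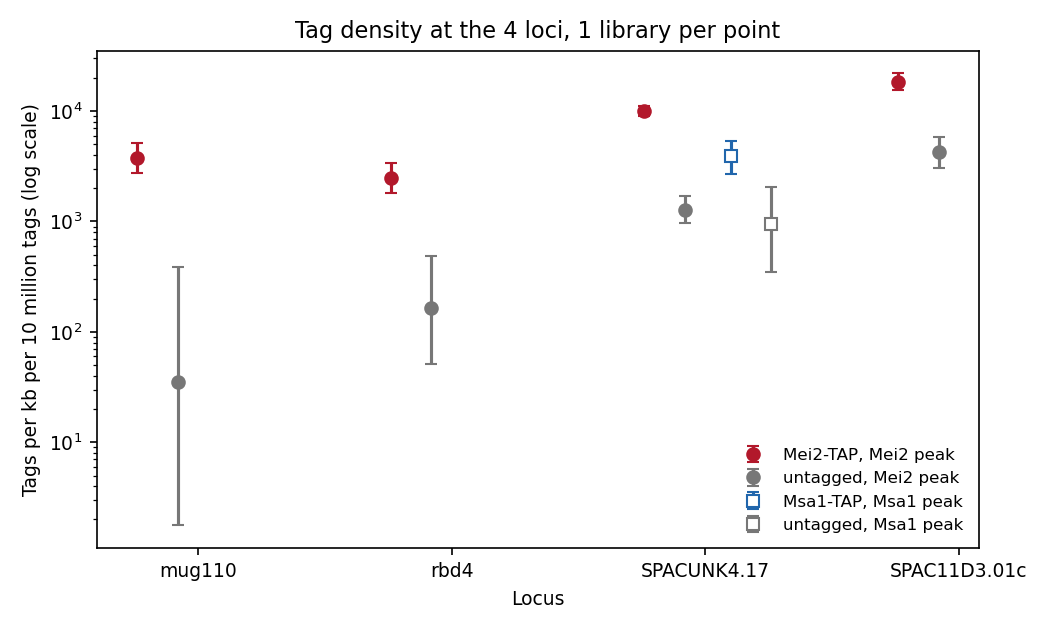
Tags per kb per 10000000 tags (log scale) in 1 library per point, with 95% Poisson counting intervals: Mei2-TAP (red) and untagged (grey circles) over the Mei2 peak, and Msa1-TAP (blue) and untagged (open grey squares) over the Msa1 peak. The untagged points spread from 35.0 at mug110 to 4275 at SPAC11D3.01c, the Mei2-TAP points only from 2482 to 18449.5.

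Across the 4 loci, the Mei2-TAP density varied by 7.43 times and the untagged density by 122 times. The latter rests on the 0.5 untagged tags of mug110, whose density has a counting interval of 1.77 to 390, and with mug110 set to 3 untagged tags the spread was 25.9 times. In order of ratio they ran mug110, rbd4, SPACUNK4.17 and SPAC11D3.01c. In that order the untagged density was higher at each next locus, from 35.0 through 165 and 1281 to 4275. Untagged tags are the divisor of the ratio and entered the selection of the loci, so this opposed order is partly built in. The untagged intervals of mug110 and rbd4 (51.3 to 482) overlap, and with 3 untagged tags mug110 would have a density of 210.3, above that of rbd4, so the order of this pair is not settled. In order of Mei2-TAP density they ran SPAC11D3.01c, SPACUNK4.17, mug110 and rbd4, so no locus kept its place. The intervals of the Mei2-TAP density were 15369 to 21966 for SPAC11D3.01c and 8938 to 11159 for SPACUNK4.17, which do not overlap with each other or with the lower pair. Those of mug110 (2761 to 5179) and rbd4 (1803 to 3409) overlap, so the order of this pair is not settled by the counts. mug110 and rbd4 lay under the median untagged density of the list, 495, and SPACUNK4.17 and SPAC11D3.01c above it. The 4 loci share no single level: mug110 and rbd4 had fewer tags in both libraries than SPACUNK4.17 and SPAC11D3.01c. All 4 had more Mei2-TAP tags than the median peak of the list, 13.25. A peak with fewer tags reaches a low p-value only with few untagged tags, so this split of the loci too follows partly from the selection.

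Together the 4 loci held 529 Mei2-TAP tags, which is 0.273% of that library and 4.77% of the tags within Mei2 peaks, and 95.5 untagged tags, or 0.0378% of that library. All 4 peaks were longer than the median, with length ranks of 15, 7, 2 and 23 of 128 in the order of ratio, while 59.4% of the peaks had the lowest length, 200 nt. At the limit of the 20 lowest p-values, the last peak inside lay on tim23, which encodes a mitochondrial protein translocase subunit, with 27 tags against 2.5 (ratio 14.1, 3.60 to 60.3). The first outside lay on leu2, a gene of leucine synthesis, with 56 against 14.5 (5.03, 2.71 to 9.25). By p-value the 4 loci ranked 7th (mug110), 13th (rbd4), 4th (SPACUNK4.17) and 11th (SPAC11D3.01c).

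**Figure D3:**
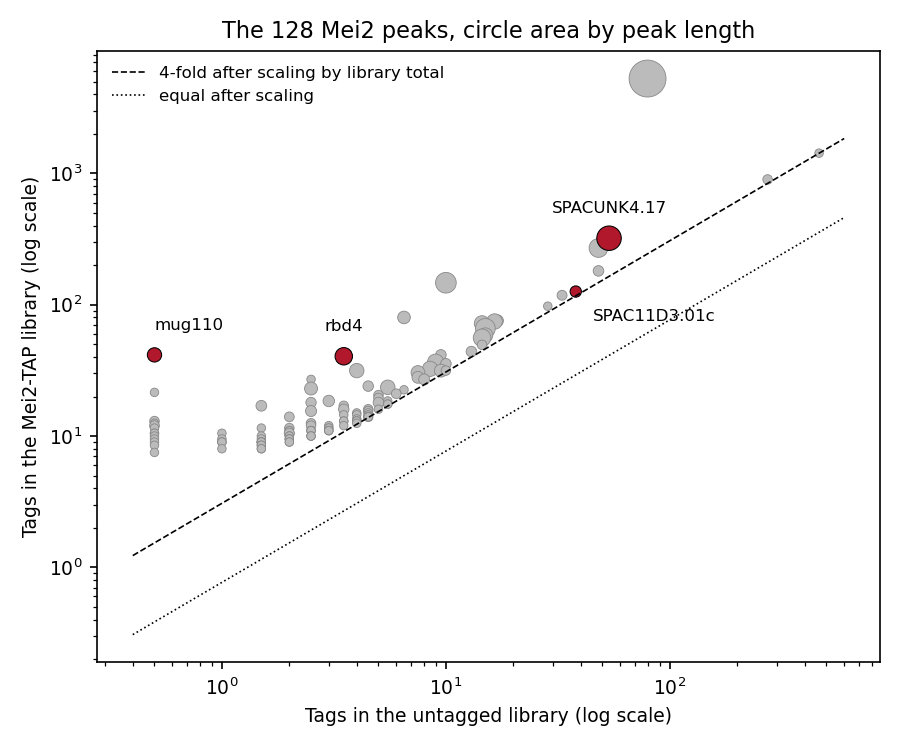
Mei2-TAP tags against untagged tags (both log scale) for the 128 Mei2 peaks, with circle area by peak length and the 4 loci in red. The dashed line marks a ratio of 4 and the dotted line a ratio of 1: mug110 stands at the left edge with 0.5 untagged tags, and SPAC11D3.01c lies just above the dashed line with 126 tags against 38.

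In the Msa1 list, 1 of the 4 loci had a peak, SPACUNK4.17, beside 14.1% of all Mei2 peaks (18 of 128). The paper counted an RNA as a CLIP-Seq target only where it came down in Mei2-TAP cells but in neither control strain, as judged by differential peaks. The Msa1 peak at chrI:2873889-2874139 had 35 Msa1-TAP tags and 6 untagged tags, a ratio of 4.09 (1.70 to 11.9). That ratio ranked 138th of 140 in the Msa1 list, near its lowest value of 4.01. The peak lay wholly within the Mei2 peak, of which it took 15.1%, and wholly within the coding sequence, from 113 nt after the first base of the start codon. Of the 53.5 untagged tags of the Mei2 peak, 6 (11.2%) lay in it, so the untagged density was 950 inside and 1340 per kb per 10000000 tags in the remaining 1404 nt. The Msa1-TAP density in its own peak was 3890 (2709 to 5409) and the Mei2-TAP density over the longer Mei2 peak was 10003. Since these windows differ in length and position, the values stand side by side without a comparison. Among the 18 Mei2 peaks with an Msa1 peak, SPACUNK4.17 was the second by Mei2-TAP tags and the fifth by Mei2-TAP ratio, and by Msa1-TAP ratio it was the 17th. Both lists use the same untagged library. The 6 untagged tags in the Msa1 peak enter both ratios, while the remaining 47.5 of the Mei2 peak enter only the Mei2-TAP ratio.

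mug110, rbd4 and SPAC11D3.01c had no Msa1 peak, and the nearest Msa1 peaks lay 32.4, 16.7 and 24.7 kb away. The lists give no Msa1-TAP tags at these loci, and the level of Msa1-TAP there was not analysed here. A peak of the same extent with a ratio of 4 would have had a signal of 79.2 Msa1-TAP tags per 10000000 at mug110, 554 at rbd4 and 6019 at SPAC11D3.01c. The lowest peak of the Msa1 list had 306. At SPAC11D3.01c the ratio would thus have been the harder condition to meet. The value at mug110 rests on its 0.5 untagged tags and would be above 306 with 3, so which condition was harder there is not settled. The absence of a peak bounds the Msa1-TAP level differently at each locus.

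**Figure D4:**
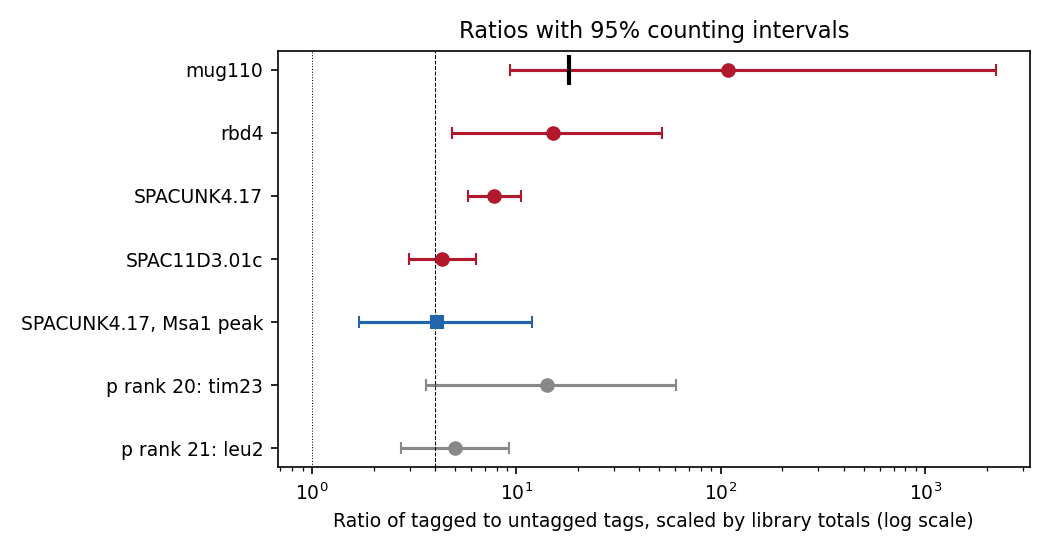
Ratio of tagged to untagged tags (log scale) with 95% counting intervals for the 4 loci in Mei2-TAP (red), for the Msa1 peak on SPACUNK4.17 (blue) and for the peaks at ranks 20 and 21 by p-value (grey). The black bar marks the ratio of 18.0 for mug110 with the untagged value set to 3 tags, and the dashed line a ratio of 4. On the log scale the interval is widest for mug110 and narrowest for SPACUNK4.17, the loci with the fewest and the most untagged tags of the 4.

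An RNA is annotated on the other strand under all 4 peaks, beside 59.4% of all Mei2 peaks that lie over genes of both strands. In each case it is a non-coding RNA on the plus strand. SPNCRNA.6139 (1079 nt) covers the whole mug110 gene and peak, SPNCRNA.4201 (2107 nt) the whole of rbd4 and its peak, and SPNCRNA.2052 (720 nt) the whole of SPAC11D3.01c and its peak. SPNCRNA.857 (2172 nt) covers 1505 nt of the SPACUNK4.17 peak (91.0%), 85.0% of the gene and all 250 nt of the Msa1 peak. Only the 5′ end of SPACUNK4.17 is thus free of annotation on the other strand. Such pairs are common in this annotation, where 89.9% of 5113 coding genes overlap a gene of the other strand and 45.6% have over 50% of their length under one. The libraries were strand-specific, but the lists put every peak on the plus strand, and from the lists alone the tags cannot be assigned to the coding or to the non-coding RNA of a pair. Coverage tracks were not used here.

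The hexamer TTAAAC was searched on both strands of each peak, together with its variant TCAAAC and its variant TGAAAC, all DNA forms of the Mmi1 element. They cannot overlap each other on one strand. On the strand of the gene, mug110 held 1 (TCAAAC, in the last coding nt, at chrII:3453750-3453755) and rbd4 held 2 (TGAAAC in intron 1, at chrI:4894856-4894861, and TGAAAC in exon 4, at chrI:4894223-4894228). SPACUNK4.17 and SPAC11D3.01c held 0. Of all genome windows of the same length, 53.2% hold at least 1 on a given strand at the length of the mug110 peak, 67.8% at that of rbd4, 89.3% at that of SPACUNK4.17 and 37.7% at that of SPAC11D3.01c. On the other strand, rbd4 held 2 TCAAAC, SPACUNK4.17 held 1 TTAAAC and 1 TCAAAC, and the other peaks held 0. The 1654 nt of SPACUNK4.17 are thus a long stretch with none on the coding strand, at a GC content of 41.4% against 36.1% for the genome. GC content was 41.1% for mug110 and 40.3% for SPAC11D3.01c, and 34.4% for the peak of rbd4, which includes its introns and has 40.7% T on the strand of the gene.

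These genes and their relatives were counted beside all annotated genes, of which few lie under a peak. Of 91 genes named mug and a number, 2 lay under a Mei2 peak (2.20%, beside 1.56% of 12645 annotated genes). Under an Msa1 peak lay 1 (1.10%, beside 1.72%). Of the 2 with a Mei2 peak, 1 is mug110 itself, which was chosen for that peak, so the share is no sign of an excess. The second mug gene with a Mei2 peak was mug161, annotated as a CwfJ family splicing factor, with 10 tags against 2.5 (5.21, 1.12 to 24.5), where the peak also touched oct1 on the other strand. mug14, annotated as an adducin, had the Msa1 peak, with 42 tags against 4 (7.37, 2.67 to 28.3). Of 24 meu genes, also induced in meiosis, 0 lay under a peak of either list. The Dsc-SREBP pathway cleaves a transcription factor that answers to sterols and oxygen. Of 15 genes of rhomboid proteases and of this pathway, rbd4 alone was under a Mei2 peak (6.67%) and 0 were under an Msa1 peak. As rbd4 was likewise chosen for its Mei2 peak, this share too is no sign of an excess. The annotated rhomboid genes rbd1, rbd2 and rbd3 were in neither list, and neither was SPBC12C2.04, the other NAD-binding dehydrogenase of that name.

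The Mei2 peaks most like each locus in tags, untagged tags and length lay on other genes, among them tif51, which the paper also names as a Mei2 CLIP-Seq target. The measure was the distance over the 128 peaks in the log2 of these values, each divided by its SD. mug110 had no near equal: its closest peaks were those of btb1 at 1.48 SD (23 tags against 2.5) and SPAC4H3.08 at 1.66 SD (17 against 1.5). The closest to rbd4 were SPAC3H8.04 at 0.792 SD (31.5 against 4) and sid2, a kinase gene of septation, at 0.820 SD (36.5 against 9). The closest to SPACUNK4.17 were tif51, which encodes translation factor eIF5A, at 1.05 SD (270.5 against 48) and the non-coding nc-tgp1 at 1.69 SD (147 against 10). SPAC11D3.01c had the closest matches, the small nucleolar RNA genes snu3 at 0.463 SD (181 against 48) and snR30 at 0.521 SD (118 against 33). The ratios of this last pair, 4.91 and 4.65, are near that of SPAC11D3.01c, and the counting intervals of all 3 overlap. The measure uses the values by which the peaks were called, and likeness in it says nothing of function. The nearest other Mei2 peak was 27.7 kb away for mug110, 77.3 kb for rbd4, 29.4 kb for SPACUNK4.17 and 114 kb for SPAC11D3.01c.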

How the data were processed

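CLIP-Seq libraries of Mei2-TAP, Msa1-TAP and untagged cells were used through the 2 deposited peak lists. Per the labels and methods, the authors used STAR to map read pairs to ASM294v2, sorted them with SAMtools, made coverage with deepTools and called wide peaks with HOMER against the untagged library. Versions are not given in the sources used here. The deposited estimated counts of tags come in steps of 0.5, and in each list 1 library is scaled to the other's total. The deposited signal is tags per 10000000. The deposited fold is the ratio of scaled tags, and the deposited p-value is HOMER's, used only for order.

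Library totals and raw tags were recovered from these columns. Of the recovered values, 119 of 119 low Mei2-list untagged values and 140 of 140 Msa1 values lay within 0.2 steps of a whole step. The fit of the Msa1-TAP total and the intervals of ratios were tested on simulated data. The simulated untagged counts were whole numbers, on average above those of mug110 and rbd4, so intervals at such low counts were not tested. Intervals are 95% exact Clopper-Pearson (ratios) or Poisson (densities) on tags rounded up to whole numbers. Untagged values below 3 tags were also set to 3. Intervals reflect counting error alone: reads were amplified by PCR and are not independent molecules. With 1 library a side there was no replicate test.

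Peaks and genes overlapped from 1 nt. Peak positions are as deposited, and lengths run from the base after the start. Genes and sequence came from ASM294v3 RefSeq: of 165 features with ASM294v2 coordinates in a supplement of the study, 162 had at least 1 end at the same position and 15 both. All 4 coding models ran from ATG to a stop with 0 inner stops. Shares of motifs are over windows tiling the 3 nuclear chromosomes. Named besides the 4 loci were genes under and next to their peaks, the peaks at p-value ranks 20 and 21, the 2 most similar Mei2 peaks of each, members of the gene lists under a peak, and meiRNA. The loci, lists and rules were chosen with earlier results of these data known. Coverage tracks were not used. Python 3.11.15, NumPy 2.4.6, SciPy 1.17.1 and matplotlib 3.10.9 were used.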

Additional observations from a re-analysis of the deposited data

How the results depend on the processing

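The ratios of the 4 loci were recomputed with library totals that leave out tags within peaks and with 0.5 tags added to both libraries. They were also recomputed with the deposited fold and with a floor of 3 untagged tags. All stayed within their counting intervals. The deposited fold could not differ, because the untagged tags were recovered from it or from the control tags behind it. The floor could change only mug110, since the other loci had over 3 untagged tags. For mug110 the ratios ranged from 18.0 on the floor to 114 with totals outside peaks, with 54.7 after adding 0.5 tags. The size of its ratio thus rests on the untagged value. The count of loci with an Msa1 peak stayed at 1 for an overlap of 50% of the shorter peak and for peaks within 1000 nt. It was 0 where 50% of the Mei2 peak had to be covered, since the Msa1 peak is short, and 0 where both ratios had to be at least 8. Loci with an RNA on the other strand stayed at 4 under both stricter overlaps. The midpoint lay in coding sequence at 3, and coding sequence was the longest part at 4. Loci with an Mmi1 element stayed at 2 in exons alone and were 3 over both strands. Ordered by the lower bound of the interval, 2 of the 4 loci kept their place, and by Mei2-TAP tags per kb 0 did. Counts of listed genes under a peak did not change when the midpoint of the peak had to lie in the gene. This last setting was chosen after seeing the data. No library could be left out in turn, because each list holds 1 tagged and 1 untagged library. No paired analysis was possible because the lists hold 1 library a side.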
